A study of Mus musculus with 8 samples.

Results

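Deep B bins are 100-kb autosomal stretches that scored low, in the inactive compartment, in all 8 Hi-C libraries from mouse embryonic stem cells (mESCs). They were chosen on the measured values: a bin was a member when its compartment score was -0.03 or lower in all 8 libraries. The rule found 1483 members among the 23972 bins scored in all 8 libraries, or 6.19%. Because every library entered the rule, the members' own scores are given as a description, without a test.

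Hi-C counts how often pairs of loci touch in fixed nuclei. The compartment score is the first eigenvector of each autosome's map of contacts within that autosome, and its sign separates the A compartment (positive, open and gene-rich) from the B compartment (negative, closed and gene-poor). Each of the 8 groups held 1 library. In the #33-6 Setdb1 conditional knockout line, the 4 groups were Setdb1 WT, which received no agent, Setdb1 WT + UNC, kept in 2 µM UNC0642 for 3 days, Setdb1 KO, given 800 nM 4-hydroxytamoxifen (4-OHT) for 5 days to delete Setdb1, and Setdb1 KO + UNC, given 4-OHT for 2 days and then UNC0642 for 3. The remaining groups were Suv39h WT and Suv39h DKO cells, which lack both SUV39H1 and SUV39H2, each without and with the same UNC0642 treatment (+ UNC). WT and DKO cells of the Suv39h line come from different clones, and the effect of the clone cannot be told apart from that of the deletion. Nor can 4-OHT be told apart from the loss of SETDB1. According to the methods the Hi-C was done more than once, and the paper reports closely correlated compartment scores between repeats in each group. Which repeat or pool is in each file is not stated, and no value below has a replicate check. The scores hold no measure of the targeted enzymes and could not be used to check the genotype labels.

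Stretches of B compartment largely coincide with lamina-associated domains, which lie at the nuclear periphery, replicate late in S phase and carry dimethylated lysine 9 of histone H3 (H3K9me2). The enzymes G9a and GLP, which UNC0642 inhibits, make most of this mark. SETDB1 and the pair SUV39H1 and SUV39H2 mainly make the trimethylated form, SETDB1 at endogenous retroviruses and other silenced elements and SUV39H1/2 at pericentromeric heterochromatin and on repeats. The comparisons below ask whether the deep B bins keep their score when each enzyme is lost or inhibited.

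Windows of 300 bases from the middle of 5 bins are printed to show the sequence of the deepest members, of a typical member and, for contrast, of the strongest A bin. They are the plus strand of mm10, read from the RefSeq sequence of GRCm38, and capitals mark each CpG dinucleotide (CG). The first 3 windows come from the deepest members, at most 1 per run, with no unknown base in the window, with mean scores over the 8 libraries of -0.0995, -0.0863 and -0.0727. These bins hold the pancreatic amylase genes Amy2a3 and Amy2a2, the vomeronasal receptors Vmn2r20 and Vmn2r21, and the predicted genes Gm3542 and Gm3500.
chr3:113349851-113350150: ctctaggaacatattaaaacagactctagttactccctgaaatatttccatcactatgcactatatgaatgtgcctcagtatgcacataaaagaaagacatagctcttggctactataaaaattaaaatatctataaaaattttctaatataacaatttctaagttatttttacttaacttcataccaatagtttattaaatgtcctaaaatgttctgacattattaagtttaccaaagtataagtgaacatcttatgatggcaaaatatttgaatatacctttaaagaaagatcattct
chr6:123449851-123450150: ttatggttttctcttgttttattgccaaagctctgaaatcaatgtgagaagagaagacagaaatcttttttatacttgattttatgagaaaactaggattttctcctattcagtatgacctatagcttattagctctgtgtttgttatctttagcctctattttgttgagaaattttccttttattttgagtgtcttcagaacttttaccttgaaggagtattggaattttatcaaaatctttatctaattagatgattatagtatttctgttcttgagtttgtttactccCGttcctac
chr14:5349851-5350150: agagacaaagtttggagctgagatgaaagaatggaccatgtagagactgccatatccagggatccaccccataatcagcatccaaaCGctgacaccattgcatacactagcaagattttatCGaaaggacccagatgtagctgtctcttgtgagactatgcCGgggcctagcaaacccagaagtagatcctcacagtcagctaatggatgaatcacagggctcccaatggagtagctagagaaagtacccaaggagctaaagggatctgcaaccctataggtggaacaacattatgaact

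Of the 3 windows, the third was wholly masked as repeat in the reference, and the others were masked over 17.3% and 23.7%. In all 3 bins at least 99.5% of sampled 50-base words occurred elsewhere in the genome. The next window comes from the member of median mean score (-0.0386), which overlaps no protein-coding gene and had 4.50% of such words. The last window comes from the bin with the highest mean score of all bins, 0.0770, which holds Arhgap19, Frat1, Frat2 and Rrp12.
chr13:83949851-83950150: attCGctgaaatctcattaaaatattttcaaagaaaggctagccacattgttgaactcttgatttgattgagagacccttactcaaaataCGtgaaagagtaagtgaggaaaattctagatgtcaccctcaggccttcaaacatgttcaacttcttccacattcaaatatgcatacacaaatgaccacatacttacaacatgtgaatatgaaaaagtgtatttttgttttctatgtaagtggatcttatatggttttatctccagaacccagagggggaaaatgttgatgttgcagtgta
chr19:41849851-41850150: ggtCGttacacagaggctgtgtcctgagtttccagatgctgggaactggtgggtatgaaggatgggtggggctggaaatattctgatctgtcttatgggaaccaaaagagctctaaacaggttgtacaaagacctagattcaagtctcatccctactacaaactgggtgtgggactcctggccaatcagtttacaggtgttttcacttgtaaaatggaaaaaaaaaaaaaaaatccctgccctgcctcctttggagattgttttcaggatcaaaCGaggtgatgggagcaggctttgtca

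The first 3 windows held 0, 1 and 3 CpG, and those of the median member and of the highest bin held 2 each, so windows of this size did not separate the kinds of bin. Over the whole 100-kb bins, GC content was 38.6% in the median member, against 47.8% in the highest bin.

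The rule was strict. In single libraries, between 2965 (Suv39h WT) and 3188 (Setdb1 KO) bins scored -0.03 or lower, and the members were at least 46.5% of these. The threshold was passed in at least 1 library by 5113 bins. Of these, 469 passed in exactly 7 libraries, and the failing library was most often Suv39h WT (77 bins) and least often Setdb1 WT (40 bins). The members nearest to the threshold had highest scores of -0.0300117 on chromosome 10, -0.0300201 on chromosome 6 and -0.0300203 on chromosome 17. The bins that missed it most narrowly had highest scores of -0.0299981 on chromosome 4, -0.0299974 on chromosome 12 and -0.0299876 on chromosome 13. No gap in the scores separated the members from these neighbours.

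Members fell into 2 kinds that differed in a property the rule did not use, the share of sequence that is present more than once in the genome. For each bin, 200 words of 50 bases were sampled and looked up on both strands of all chromosomes. A bin was called multi-copy where at least 50% of its words had another exact copy, a limit set after the values were seen. By this measure 218 members were multi-copy and 1265 were mostly single-copy. Of all 551 multi-copy bins in the genome, 39.6% were members, against 5.40% of the other bins. With limits of 30% and 80%, and with 100-base words, the shares of such bins that were members were 23.9%, 70.1% and 55.3%. Most multi-copy members lay on chromosomes 7 (55), 14 (49), 5 (28) and 4 (25). With 100-base words, 367 bins in place of 551 were multi-copy, so the count depends on the word length. Whether reads were placed uniquely in these bins was not measured, and the part of read placement in the scores was not tested.

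The deepest scores belonged to the multi-copy members. Their mean score over bins and libraries was -0.0529 ± 0.00984 (SD over 218 bins), against -0.0385 ± 0.00434 (SD over 1265 bins) for the mostly single-copy members, and 97 of the 100 deepest members were multi-copy (100 of 100 with each score divided by the root mean square, RMS, of its autosome). Their scores also varied more between libraries, with a median SD over the 8 libraries of 0.00634 against 0.00267. The other B bins, those below 0 in all libraries but not members, had a median SD of 0.00340. Among multi-copy members, 55.0% came within 5% of the lowest score of their autosome in at least 1 library, against 9.57% of mostly single-copy members.

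**Figure D1:**
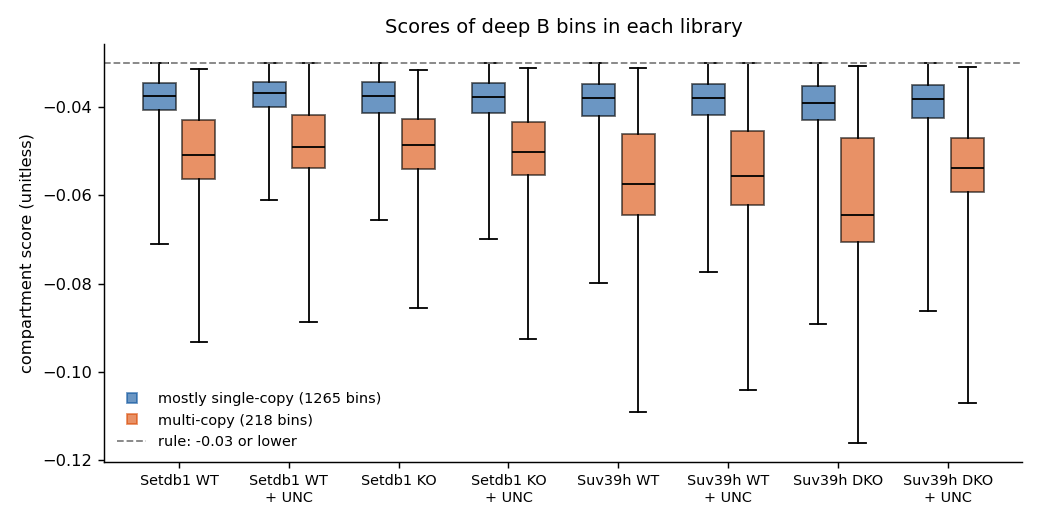
Compartment score (no unit) of deep B bins in each of the 8 libraries, split into 1265 mostly single-copy and 218 multi-copy bins. Boxes span the quartiles, black lines are medians, whiskers reach the lowest and highest bin, and the dashed line is the threshold of the rule. The multi-copy boxes lie lower in every library, with medians from -0.0485 (Setdb1 KO) to -0.0645 (Suv39h DKO), and the single-copy medians stay between -0.0367 and -0.0391.

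In what follows, the 8 values of a bin are given in the order WT, WT + UNC, KO or DKO, and KO + UNC or DKO + UNC within each line. The deepest member, chr3:113300001-113400000 with Amy2a3 and Amy2a2, scored -0.0932, -0.0886, -0.0855 and -0.0924 in the Setdb1 libraries and -0.109, -0.104, -0.116 and -0.107 in the Suv39h libraries. It was the lowest in Suv39h DKO and the highest in Setdb1 KO, and all 4 Suv39h values lay below all 4 Setdb1 values. The bin of Vmn2r20 and Vmn2r21, which encode pheromone receptors of the vomeronasal organ, is chr6:123400001-123500000 and scored -0.0817, -0.0778, -0.0766 and -0.0820 in the Setdb1 libraries and -0.0940, -0.0903, -0.102 and -0.0858 in the Suv39h libraries. Here too the Suv39h values lay below the Setdb1 values. Both bins had copies of every sampled word elsewhere in the genome.

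The remaining 3 of the 5 deepest bins lay on chromosome 14. The bin chr14:41800001-41900000, of which 80.9% is unknown bases in the assembly, scored -0.0642, -0.0618, -0.0628 and -0.0658 in the Setdb1 libraries and -0.0837, -0.0803, -0.0939 and -0.0772 in the Suv39h libraries. The bin chr14:5300001-5400000, with Gm3542 and Gm3500, scored -0.0622, -0.0533, -0.0620 and -0.0641 in the Setdb1 libraries and -0.0846, -0.0824, -0.0938 and -0.0796 in the Suv39h libraries. The bin chr14:25900001-26000000 holds the homeobox genes Cphx1 and Duxbl1 besides Plac9a and Tmem254a, and scored -0.0621, -0.0593, -0.0628 and -0.0623 in the Setdb1 libraries and -0.0832, -0.0829, -0.0818 and -0.0791 in the Suv39h libraries. In all 3 bins, as on chromosomes 3 and 6, the 2 lines did not overlap.

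On the deposited scale, whose RMS is largest on chromosome 19, and taking at most 1 bin per run, the deepest mostly single-copy members with no unknown base were chr19:35500001-35600000, within a run of 7 members, and chr19:19800001-19900000, within a run of 21. The first scored -0.0509, -0.0479, -0.0510 and -0.0544 in the Setdb1 libraries and -0.0516, -0.0550, -0.0558 and -0.0577 in the Suv39h libraries. The second scored -0.0501, -0.0497, -0.0552 and -0.0528 in the Setdb1 libraries and -0.0460, -0.0515, -0.0547 and -0.0566 in the Suv39h libraries. Neither overlaps a protein-coding gene, and in neither did the 2 lines separate. The 3 mostly single-copy members that scored lower still were each over 50% unknown bases (55.9%, 97.4% and 97.8%). In all, 19 members were at least 50% unknown bases, 7 of them counted as mostly single-copy, and 1449 members contained no unknown base.

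The count of members on an autosome depended on the autosome's size. Chromosome 19, with 583 scored bins, held 160 members (27.4% of its bins and 10.8% of all members). Chromosomes 18 and 17 followed, with 14.4% and 13.6%, whereas chromosomes 1, 2 and 3, with 1924, 1776 and 1569 scored bins, held 8, 13 and 6 members. On each autosome the scores had a mean of 0 and a sum of squares of 0.832 to 0.997, so their typical size falls as the number of bins grows. A vector of unit length from which a mean of 0.00165 to 0.0112 in size had been subtracted would have these values, but no source states such centring. Adding this implied mean back, which raises the scores, left 537 members, and subtracting it, which is the case if its sign is the other, gave 3604. The root mean square (RMS) score was 0.0219 to 0.0222 on chromosome 1 and 0.0403 to 0.0408 on chromosome 19 over the libraries. In units of this RMS the threshold was -1.35 on chromosome 1 and -0.740 on chromosome 19. The median member lay at percentile 4.98 to 5.35 of its autosome over the libraries. The highest reached percentile 36.4, in Suv39h WT. When each autosome was scaled to the same RMS, 1553 bins passed, of which 995 were members, or 67.1% of the members. Chromosome 1 then held 134 bins and chromosome 19 held 24. By the lowest 10% of each chromosome in all 8 libraries, 796 bins qualified, and 656 of them were members. The order of the autosomes thus changed with the scaling of the score.

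**Figure D2:**
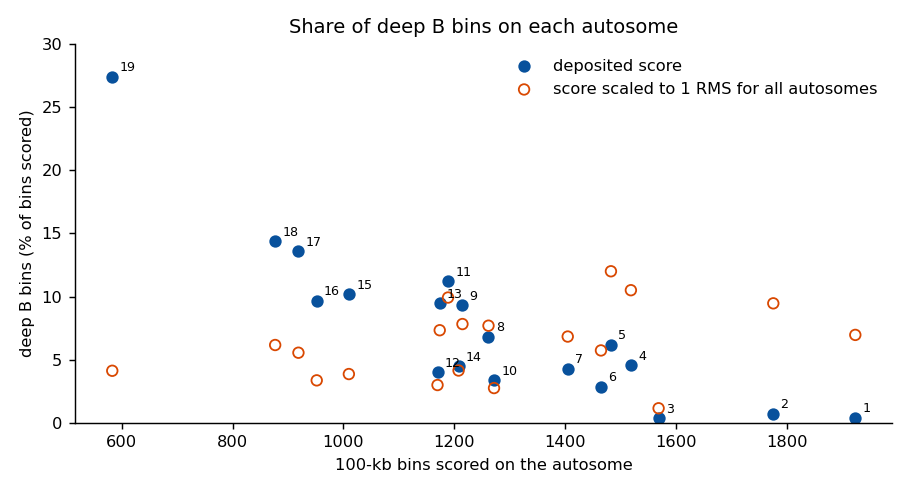
Share of scored bins that are deep B bins (%) against the number of 100-kb bins scored, for each of the 19 autosomes (numbers beside the filled points). Filled points use the deposited score and open points the score scaled to 1 RMS for all autosomes. With the deposited score the share ranges from 0.382% on chromosome 3 to 27.4% on chromosome 19, and with scaling chromosome 19 falls to 4.12% while chromosome 1 rises from 0.416% to 6.96%.

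Along the chromosome, mostly single-copy members concentrated in the middle. With each chromosome cut into 3 equal parts, the middle part held 66.0% of them, against 36.5% of other B bins and 34.2% of all bins. Only 4 of 1265 lay in the first 10 Mb of sequence, next to the centromere of these acrocentric chromosomes, and 3 in the last 5 Mb. Multi-copy members were placed differently, with 50.9% in the first part and 45 of 218 in the first 10 Mb. The share of all bins in the first 10 Mb was 5.49%.

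Members were grouped into runs, that is, adjacent members without a gap. There were 453 runs, of which 216 were single bins. The 94 runs of 5 or more bins nevertheless held 897 members, or 60.5%, and the 29 runs of 10 or more bins held 489 members, or 33.0%. The 8 runs of 20 to 38 bins held 202 members, none of them multi-copy, and 28 of the 29 runs of 10 or more bins contained no multi-copy bin. On the deposited scale, mostly single-copy members had a mean of -0.0353 ± 0.00398 (SD, 176 bins) for single bins, -0.0369 ± 0.00352 (276 bins) in runs of 2 to 4, -0.0383 ± 0.00396 (341 bins) in runs of 5 to 9 and -0.0409 ± 0.00391 (472 bins) in runs of 10 or more. Multi-copy members had means of -0.0530, -0.0524, -0.0526 and -0.0567 in the same classes, with 17 bins in the last. The order of the single-copy means is not read as a result, because bins near the threshold are those that end a run and because autosomes differ in scale. With each score divided by the RMS of its autosome, these means were -1.28, -1.26, -1.26 and -1.29, with no order by run length.

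**Figure D3:**
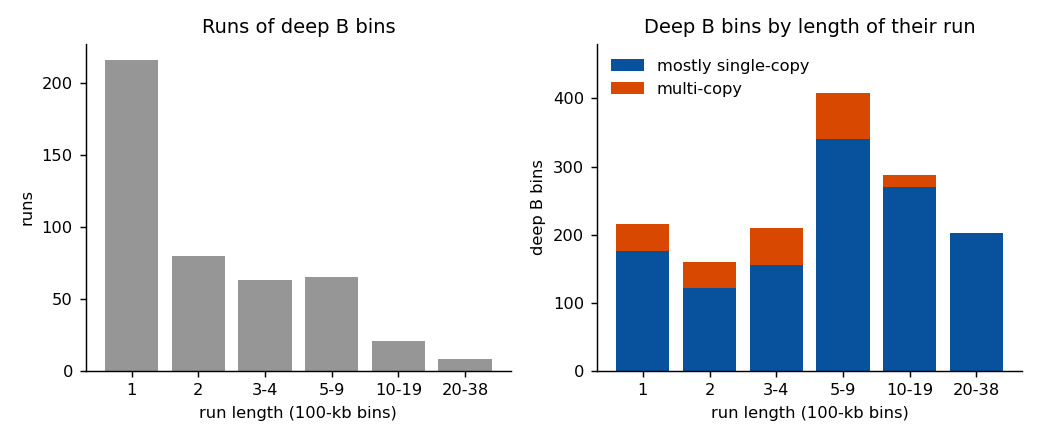
Left, number of runs of adjacent deep B bins by run length in 100-kb bins. Right, number of deep B bins in runs of each length, with multi-copy bins stacked in orange on mostly single-copy bins in blue. Single bins are the most frequent runs (216), while the largest group of members (408) lies in runs of 5 to 9 bins, and the 202 members in runs of 20 to 38 bins are all mostly single-copy.

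The bins that flanked the runs were also B. Of 861 flanking bins scored in all 8 libraries, 839 (97.4%) were below 0 in all of them and 5 were above 0 in all of them. The threshold was passed in at least 1 library by 758 flanks (88.0%), and the mean score of the flanks was -0.0301 ± 0.00860 (SD). Another 45 flanks had no score in all 8 libraries. Around the runs of 5 or more bins, the mean score in Setdb1 WT was -0.0154 at 10 bins outside the edge, -0.0306 in the last bin outside, -0.0385 in the first bin inside and -0.0404 in the fifth. In Suv39h DKO these means were -0.0174, -0.0318, -0.0413 and -0.0426. The step at the edge is partly made by the rule, which admits no member above -0.03.

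**Figure D4:**
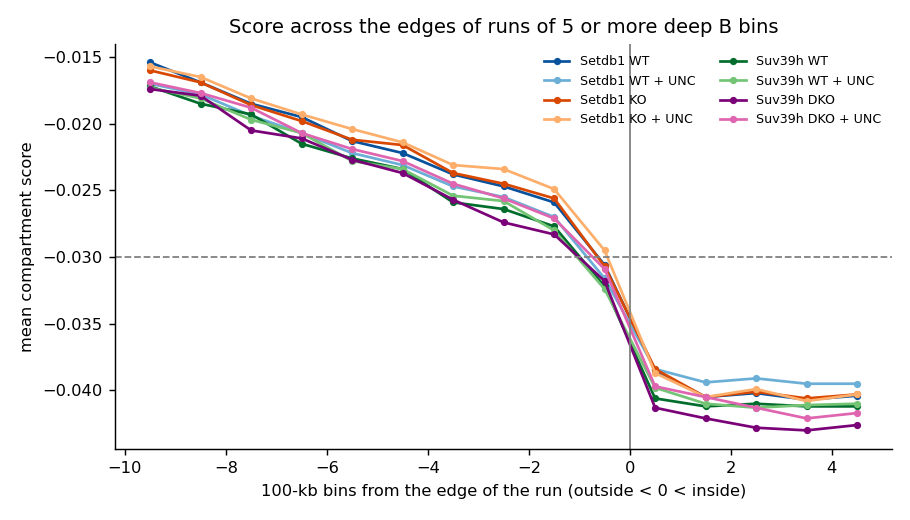
Mean compartment score at 1 to 10 bins outside and 1 to 5 bins inside the edges of runs of 5 or more deep B bins, with 1 line per library, in 100-kb bins from the edge. Both edges of the 94 runs are pooled, the dashed line is the threshold, and spreads over edges are not drawn (SD 0.0268 at 10 bins outside and 0.00614 at 5 bins inside in Setdb1 WT). All 8 lines fall towards the edge and flatten inside it, at -0.0404 in Setdb1 WT and -0.0426 in Suv39h DKO.

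The longest run, chr11:36700001-40500000, spanned 38 bins (3.8 Mb) and had a mean score of -0.0391. The only protein-coding gene in it is Tenm2, which encodes teneurin-2, a synaptic adhesion protein, and 43.6% of this 1229-kb gene on the minus strand lies inside the run. The mean of the run was -0.0387, -0.0373, -0.0380 and -0.0392 in the Setdb1 libraries and -0.0390, -0.0392, -0.0412 and -0.0405 in the Suv39h libraries. It was lowest in Suv39h DKO and highest in Setdb1 WT + UNC, and single bins of the run scored from -0.0488 to -0.0313 over all libraries. GC content in its bins had a median of 37.4%, and the flanking bins scored -0.0364 and -0.0319 on average.

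The second run, chr17:59100001-62600000 (35 bins, 3.5 Mb, mean -0.0410), overlaps no protein-coding gene. Its mean was -0.0401, -0.0373, -0.0407 and -0.0413 in the Setdb1 libraries and -0.0418, -0.0417, -0.0435 and -0.0417 in the Suv39h libraries. The third, chr19:50500001-52900000 (24 bins, mean -0.0451), holds the insulin gene Ins1 and the 5′ part (33.4%) of Sorcs1, which encodes a sorting receptor of neurons and lies on the minus strand. Its mean was -0.0453, -0.0440, -0.0458 and -0.0439 in the Setdb1 libraries and -0.0439, -0.0451, -0.0462 and -0.0461 in the Suv39h libraries. All 3 runs were lowest in Suv39h DKO, while the highest library was Setdb1 WT + UNC in the first and second and Suv39h WT or Setdb1 KO + UNC, at equal printed values, in the third.

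The fourth run, chr9:80400001-82800000 (24 bins, mean -0.0410), contains Htr1b, a serotonin receptor gene, and Mei4, a gene of meiotic recombination, and reaches into Impg1, which encodes a matrix protein of photoreceptors. The fifth, chr19:18800001-20900000 (21 bins, mean -0.0463), had the lowest deposited mean of the 10 longest runs and flanks at -0.00613 and -0.0143. In units of the RMS of the autosome its mean was -1.14, the eighth from the lowest, and the lowest was the fourth run at -1.45. It contains Rorb, a nuclear receptor gene, Anxa1 (annexin A1), the retinaldehyde dehydrogenase gene Aldh1a1 and its paralogue Aldh1a7, and reaches into the ion channel gene Trpm6 and Tmc1, a gene of hair cell mechanotransduction. The sixth, chr13:87500001-89500000 (20 bins, mean -0.0413), holds Edil3, an extracellular matrix gene of 502 kb.

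The eighth run, chr15:69200001-71200000 (20 bins, mean -0.0373), contains no protein-coding gene. The ninth, chr19:48400001-50300000 (19 bins, mean -0.0442), ends 2 bins before the third and lies between Sorcs3 and Sorcs1, covering 67.6% of the first and 29.3% of the second. The tenth, chr11:46700001-48600000 (19 bins, mean -0.0399), contains all of Sgcd, the 1093-kb gene of delta-sarcoglycan, the immune receptor genes Havcr1 and Timd4, and part of Timd2.

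Over all 94 runs of 5 or more bins, the lowest deposited mean was in Suv39h DKO in 37 runs. It was in Suv39h DKO + UNC in 19 and in Setdb1 KO in 15. Setdb1 WT + UNC had the highest mean in 36 runs. No p-value is given, because these libraries chose the runs. Suv39h DKO was not lower on every scale. Over all members, the median of Suv39h DKO minus Suv39h WT was -0.00106 as deposited and 7.26e-05 after quantile normalization. No order of the libraries is therefore read from the runs.

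Most deep B bins were without protein-coding genes. No protein-coding gene overlapped 969 members (65.3%), against 54.1% of other B bins, 35.3% of all bins and 3.56% of strong A bins, the 3059 bins at 0.03 or higher in all libraries. By number of genes, mostly single-copy members were the poorest, with 71.4% free of protein-coding sequence and 1.54 gene starts per Mb. Mostly single-copy other B bins had 3.59 starts per Mb and strong A bins 24.2. Multi-copy members had 13.9 gene starts per Mb, and 30.3% of them overlapped no protein-coding gene. By coverage the order was the other way. Protein-coding genes covered a mean of 14.7% of multi-copy members, 20.6% of mostly single-copy members and 29.5% of mostly single-copy other B bins. Within autosomes, mostly single-copy members had fewer gene starts than other mostly single-copy B bins on 19 of 19 autosomes. With all members, they had fewer on 11 of 19.

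Base composition followed the same division. Median GC content was 37.8% in mostly single-copy members (quartiles 36.8% and 38.9%), 38.9% in other mostly single-copy B bins and 46.9% in strong A bins. The median of the mostly single-copy members was lower than that of other mostly single-copy B bins on 19 of 19 autosomes, with differences from -2.74 to -0.904 percentage points, and with all members and all other B bins it was lower on 16. CpG density was 5.10 per kb against 5.81 per kb in other mostly single-copy B bins and 13.0 per kb in strong A bins. The share of sequence masked as repeats was 39.5% against 36.6%, and was higher on 19 of 19 autosomes. Sites of DpnII (GATC), the enzyme that cut the chromatin, were about equally dense, at 2.50 per kb in both classes. Multi-copy members had a median GC content of 40.9%, 6.28 CpG per kb, 2.94 DpnII sites per kb and 53.1% masked sequence.

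Promoters inside members were poor in CpG. Of RefSeq promoters (300 bases each, GRCm38.p6), 753 lay in members, with a median of 2 CpG (CG) dinucleotides each, and 9.43% of them held 10 or more. In other B bins 5923 promoters had a median of 3 and 19.6% held 10 or more. In strong A bins 9677 promoters had a median of 15 and 62.0% held 10 or more. The share over all 31257 promoters in scored bins was 44.0%. Mostly single-copy and multi-copy members had the same median of 2.

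Of 20721 protein-coding genes with sequence in scored bins, 586 (2.83%) overlapped a member and 451 lay wholly inside members. Multi-copy members touched 317 of them, with a median length of 5.44 kb. These were mainly predicted genes (180 with Gm symbols), vomeronasal receptors (38 Vmn1r and 15 Vmn2r), alpha-defensins (14) and major urinary proteins (14 Mup genes). Mostly single-copy members touched 269 genes, of median length 21.8 kb, with 88 olfactory receptors as the largest named family. Long genes were met more often by these members. Of 218 genes of at least 500 kb, 38 (17.4%) overlapped a mostly single-copy member, against 1.13% of 20503 shorter genes. A longer gene covers more bins and so meets more members by its length alone. As a share of sequence, genes of at least 500 kb made up 11.9% of the mostly single-copy members and 7.85% of all scored bins.

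Among the 10 longest genes that overlapped a member were Ptprd, Cntnap2, Lsamp, Ctnna3, Pcdh15, Lrrc4c, Tenm2, Csmd3 and Ccser1, and most of them encode adhesion or synaptic proteins of neurons. Csmd3, a gene of dendrite development at chr15:47580637-48792063, had 82.5% of its 1211 kb in members. Ptprd, a receptor tyrosine phosphatase gene, had 26.4% of 2271 kb, and Tenm2 51.7%. By contrast, Cntnap2 and Lsamp, which encode cell adhesion molecules of neurons, had only 4.45% and 4.55%. In 8 of the 10 genes, members held less than 50% of the length.

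The gene lists differed in how many of their genes met a member. Of 204 synaptic adhesion and axon guidance genes, 22 (10.8%) overlapped one, all of them mostly single-copy, beside 2.83% of all protein-coding genes, and their median length was 107 kb against 17.7 kb. Dcc, the netrin receptor of guided axons, had 90.9% of its length in members, and Cntnap5c had 100%. Of 90 cadherin and protocadherin genes, 3 (3.33%) did: Pcdh15, Cdh7 and Pcdh7. Of 1128 olfactory receptor genes, 95 (8.42%) overlapped a member, among them Olfr56, Olfr945, Olfr944 and Olfr1501. For 88 of them the member was mostly single-copy.

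Vomeronasal receptors (54 of 317, 17.0%) and defensins (14 of 64, 21.9%) overlapped members more often still. These lists met multi-copy bins almost entirely, since only 2 vomeronasal receptors and no defensin overlapped a mostly single-copy member. Vmn2r35, Vmn2r36, Vmn2r40 and Vmn2r41 on chromosome 7 and Defa2, Defa29, Defa32 and Defa33 on chromosome 8, which encode antimicrobial peptides of the gut, lay wholly inside members. The cytochrome P450 list had 5 of 100 genes, with Cyp2c29, Cyp2c38, Cyp2c39 and Cyp2c67 next to each other on chromosome 19. Of 380 Zfp genes, 7 (1.84%) overlapped a member, among them Zfp993, Zfp973, Zfp781 and Zfp735, and of 60 serpins 2 did, Serpinb9f and Serpinb9g.

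For comparison with the 2.83% of all protein-coding genes that overlapped a member, none of 96 ribosomal protein genes, 110 keratin and keratin-associated genes, 19 autosomal core pluripotency genes or 9 autosomal genes of H3K9 methyltransferases, HP1 proteins and the corepressor Trim28 did. With 19 and 9 genes, the last 2 lists are too short for a count of 0 to be read as different from that share. The start of all 9 genes of the last list, among them Setdb1, Suv39h2, Ehmt1 (GLP) and Ehmt2 (G9a), lay in bins above 0 in all 8 libraries. The start bins of 18 of the 19 pluripotency genes were above 0 in all 8, for example Pou5f1, the gene of OCT4, at 0.0608 to 0.0660. Of 20713 protein-coding genes with a scored start bin, 70.9% had it above 0 in all 8. The exception among the pluripotency genes, Dppa4, ranged from -0.000449 to 0.0218 and was above 0 in 7 libraries.

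Members kept their class by definition, so the size of their score changes was described instead. In each pair of libraries, bins that rose or fell by at least 0.01 were counted, and the same share over all 23972 bins is given beside the members' count. Since the pairs share libraries, their counts are not independent of each other. A rise of a negative score means a weaker B score.

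On SETDB1 loss without UNC0642 (Setdb1 KO minus Setdb1 WT), the members' mean score went from -0.0399 to -0.0397, with a median difference of 9.89e-05. A rise was seen in 11 members (0.742%; 1.40% of all bins) and a fall in 3 (0.202%; 0.880% of all bins). With UNC0642 in both libraries, the median difference was -0.000931, and 24 members rose (1.62%; 7.16% of all bins) while 27 fell (1.82%; 5.79% of all bins). With SETDB1 loss and UNC0642 together against Setdb1 WT, the median difference was -0.000130, and 13 rose (0.877%; 1.46% of all bins) and 9 fell (0.607%; 1.18% of all bins). All 6 shares of members lay below the shares of all bins, but this is partly fixed by the rule, which removed any bin that rose above -0.03 in a library, and nothing is read from it. Among mostly single-copy members, 3 rose and 1 fell without UNC0642, and 16 rose and 10 fell with UNC0642 in both libraries. After quantile normalization 24 rose and 13 fell without UNC0642, and 42 rose and 42 fell with it. For SETDB1 loss plus UNC0642 against Setdb1 WT, 28 rose and 17 fell after quantile normalization. Among mostly single-copy members 6 rose and 3 fell in that pair. Without UNC0642 the median was -7.54e-05 in mostly single-copy members and 0.00166 in multi-copy members.

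On SUV39H1/2 loss without UNC0642 (Suv39h DKO minus Suv39h WT), the mean score went from -0.0413 to -0.0428 and the median difference was -0.00106. A rise was seen in 29 members (1.96%; 3.64% of all bins) and a fall in 76 (5.12%; 3.73% of all bins). With UNC0642 in both libraries, the median difference was -0.000379, and 27 rose (1.82%; 2.98% of all bins) and 35 fell (2.36%; 3.86% of all bins). After quantile normalization 25 rose and 21 fell. With the implied mean added 44 rose and 22 fell, and with it subtracted 19 rose and 65 fell. For the double knockout with UNC0642 against Suv39h WT, the median difference was -0.000125, with 39 rising (2.63%; 4.53% of all bins) and 50 falling (3.37%; 5.27% of all bins). This direction also turned with the centring, to a median of 0.00108 (53 rising, 25 falling) with the implied mean added and -0.00137 (31 rising, 81 falling) with it taken away. Of the 76 members that fell on SUV39H1/2 loss, 45 were multi-copy, and the median difference was -0.000799 in mostly single-copy and -0.00466 in multi-copy members. After quantile normalization of the libraries 28 members rose and 26 fell without UNC0642, and the median was 7.26e-05.

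Inhibition of G9a and GLP by UNC0642 was read in 4 backgrounds. In Setdb1 WT the median difference was 0.000701, and 21 members rose (1.42%; 3.51% of all bins) and 14 fell (0.944%; 4.62% of all bins). Among mostly single-copy members 7 rose and 9 fell there, and after quantile normalization 29 rose and 30 fell. In Setdb1 KO it was -0.000367, with 5 rising (0.337%; 0.755% of all bins) and 6 falling (0.405%; 0.934% of all bins), against 4 and 1 among mostly single-copy members and 18 and 11 after quantile normalization. In Suv39h WT the median difference was 0.000284, with 19 rising (1.28%, beside 2.26% of all bins) and 23 falling (1.55%, beside 2.53%). Among mostly single-copy members 4 rose and 8 fell, and after quantile normalization 12 rose and 18 fell. In Suv39h DKO it was 0.000867, with 113 rising (7.62%; 3.04% of all bins) and 43 falling (2.90%; 3.69% of all bins). Of these 113, 95 were multi-copy, and of the 1265 mostly single-copy members 18 rose (1.42%) and 24 fell (1.90%). After quantile normalization 23 members rose and 36 fell in this pair, and with the implied mean subtracted the median was -0.00106.

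Between the untreated lines 113 members changed, of which 76 were multi-copy and 37 mostly single-copy. Within a line, UNC0642 in Suv39h DKO changed 42 mostly single-copy members and SUV39H1/2 loss 41. Between Suv39h WT and Setdb1 WT the median difference was -0.000667, with 20 members rising (1.35%; 5.68% of all bins) and 93 falling (6.27%; 6.27% of all bins). After quantile normalization 48 rose and 47 fell, with a median of 0.000532. Over all 11 pairs, the members made 700 changes of at least 0.01, and 441 (63.0%) of these were in multi-copy members, which are 14.7% of the members. In no pair did more than 3.32% of mostly single-copy members change by that much, and between 2.75% and 52.3% of multi-copy members did. A change of 0.01 was never reached in 1143 members. In 6 of the 11 pairs the sign of the members' median difference turned under at least 1 of 4 other scalings, so no direction is read from the medians of those 6 pairs.

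Few bins changed in the same way in both pairs of a knockout. On SETDB1 loss, 2 members rose and 1 fell by at least 0.01 both without and with UNC0642. The risers were chr2:177600001-177700000 and chr4:146800001-146900000, which holds Gm21411, and the faller was chr7:9100001-9200000. All 3 were multi-copy, and the first and second were 85.9% and 52.3% unknown bases. Of all bins, 0.567% rose and 0.129% fell in this way. On SUV39H1/2 loss, 5 members rose and 7 fell in both pairs, beside 0.350% and 0.509% of all bins, and 3 of these 12 were mostly single-copy. One of the 3, chr17:40000001-40100000, contained no unknown base, while the other two were 89.3% and 97.4% unknown bases. It scored -0.0378, -0.0374, -0.0325 and -0.0378 in the Setdb1 libraries and -0.0514, -0.0513, -0.0634 and -0.0670 in the Suv39h libraries, so the lines did not overlap there. Over the 4 pairs without and with UNC0642, 138 members (9.31%; 6.79% of all bins) rose by any amount in all 4, and 74 (4.99%; 5.94% of all bins) fell in all 4.

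The largest single changes fell mostly on multi-copy or gapped sequence. The bin chr3:15600001-15700000, 89.3% unknown bases, had the largest rise on SETDB1 loss (0.0306), on SUV39H1/2 loss (0.0323), on UNC0642 in Setdb1 WT (0.0232) and on SETDB1 loss plus UNC0642 (0.0245). It scored -0.0648, -0.0416, -0.0342 and -0.0403 in the Setdb1 libraries and -0.0696, -0.0642, -0.0373 and -0.0492 in the Suv39h libraries. The largest fall on SUV39H1/2 loss (-0.0494) and on UNC0642 in Suv39h WT (-0.0295) was in chr14:3200001-3300000, with D830030K20Rik, which scored -0.0441, -0.0414, -0.0414 and -0.0503 in the Setdb1 libraries and -0.0399, -0.0694, -0.0893 and -0.0718 in the Suv39h libraries. Among the libraries without UNC0642, the first bin was higher in both knockouts than in both WT libraries. The second bin was highest in Suv39h WT and lowest in Suv39h DKO.

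For UNC0642 in Suv39h DKO, the largest rise (0.0370) was in chr14:5000001-5100000, with Gm3298, 4930555G01Rik and Gm8281, which scored -0.0367, -0.0369, -0.0452 and -0.0444 in the Setdb1 libraries and -0.0551, -0.0724, -0.0890 and -0.0519 in the Suv39h libraries. The largest fall (-0.0328) was nearby in chr14:4500001-4600000, with Gm3173 and Gm3047, which scored -0.0423, -0.0418, -0.0485 and -0.0570 in the Setdb1 libraries and -0.0569, -0.0699, -0.0420 and -0.0748 in the Suv39h libraries. Suv39h DKO was therefore the lowest library in one bin and close to the highest in the other. The largest rise for UNC0642 in Suv39h WT (0.0280) was in chr14:7300001-7400000, with Gm3739, Gm5797 and Gm8374, at -0.0374, -0.0335, -0.0376 and -0.0404 in the Setdb1 libraries and -0.0654, -0.0374, -0.0647 and -0.0429 in the Suv39h libraries. In that bin both Suv39h libraries without UNC0642 were low and both with it were high.

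The largest rise for UNC0642 in Setdb1 KO (0.0157) was the only extreme in single-copy sequence without gaps, chr19:17900001-18000000, which scored -0.0463, -0.0399, -0.0528 and -0.0372 in the Setdb1 libraries and -0.0460, -0.0468, -0.0454 and -0.0474 in the Suv39h libraries. The value in Setdb1 KO was the lowest and that in Setdb1 KO + UNC the highest of the 8. The largest fall in that pair (-0.0206) and for SETDB1 loss plus UNC0642 (-0.0149) was in chr12:23600001-23700000, at -0.0386, -0.0508, -0.0329 and -0.0535 in the Setdb1 libraries and -0.0795, -0.0756, -0.0840 and -0.0690 in the Suv39h libraries. The lowest value of the Suv39h line there was in Suv39h DKO, and every Suv39h value lay below every Setdb1 value.

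On SETDB1 loss, the largest fall (-0.0116) was in chr14:7400001-7500000, with Gm3755 and Gm3752, at -0.0326, -0.0375, -0.0441 and -0.0459 in the Setdb1 libraries and -0.0530, -0.0409, -0.0372 and -0.0414 in the Suv39h libraries. With UNC0642 in both libraries, the largest rise on SETDB1 loss (0.0237) was in chr13:65900001-66000000, at -0.0420, -0.0548, -0.0356 and -0.0311 in the Setdb1 libraries and -0.0462, -0.0486, -0.0549 and -0.0571 in the Suv39h libraries. The bin chr13:65700001-65800000 in the same run had the largest fall for UNC0642 in Setdb1 WT (-0.0175), at -0.0495, -0.0670, -0.0534 and -0.0532 in the Setdb1 libraries and -0.0560, -0.0657, -0.0586 and -0.0739 in the Suv39h libraries. Both bins of chromosome 13 were lower in Setdb1 WT + UNC than in the other Setdb1 libraries.

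With UNC0642 in both libraries, the largest fall on SETDB1 loss (-0.0158) was in chr14:19500001-19600000, with Gm2244, Gm2237 and Gm5458, at -0.0455, -0.0371, -0.0462 and -0.0529 in the Setdb1 libraries and -0.0738, -0.0561, -0.0663 and -0.0503 in the Suv39h libraries. The largest rise on SUV39H1/2 loss with UNC0642 (0.0340), and for the double knockout plus UNC0642 (0.0361), was in chr14:3500001-3600000, with Gm3005, at -0.0635, -0.0596, -0.0608 and -0.0601 in the Setdb1 libraries and -0.0808, -0.0786, -0.0807 and -0.0447 in the Suv39h libraries. There Suv39h DKO + UNC stood apart from the other 7 libraries. The largest falls in the same pairs (-0.0322 and -0.0342) were in a bin of chromosome 18 that is 97.4% unknown bases, at -0.0710, -0.0611, -0.0655 and -0.0699 in the Setdb1 libraries and -0.0520, -0.0540, -0.0665 and -0.0862 in the Suv39h libraries. Between the untreated lines, the largest rise was in chr7:22500001-22600000, with Vmn1r152 and 3 predicted genes, at -0.0556, -0.0537, -0.0546 and -0.0555 in the Setdb1 libraries and -0.0356, -0.0602, -0.0695 and -0.0487 in the Suv39h libraries, and the largest fall (-0.0418) was in chr12:87700001-87800000, with Gm21319 and Gm21936, at -0.0381, -0.0362, -0.0394 and -0.0387 in the Setdb1 libraries and -0.0798, -0.0774, -0.0890 and -0.0752 in the Suv39h libraries. In the last bin, 55.9% unknown bases, every Suv39h value lay below every Setdb1 value.

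To read B strength in libraries that had no part in choosing the bins, bins were also chosen in one line and read in the other. The 1901 bins at -0.03 or lower in all 4 Suv39h libraries, of which 78.0% are members, were read in the Setdb1 line. In Setdb1 WT, 1714 of them (90.2%, 95% Wilson interval 88.7 to 91.4) were at -0.03 or lower, and in Setdb1 KO 1674 (88.1%, 86.5 to 89.4). With UNC0642 the shares were 93.2% (91.9 to 94.2) in Setdb1 WT + UNC and 87.2% (85.6 to 88.6) in Setdb1 KO + UNC. These intervals cover the number of bins only. Adjacent bins are not independent and each group is 1 library, so no test of the differences was run. At least 1899 of the 1901 bins were below 0 in each Setdb1 library. On the deposited scale, UNC0642 in Setdb1 WT changed their mean by 0.000154. By at least 0.01, 27 rose (1.42%, beside 3.51% of all bins) and 52 fell (2.74%, beside 4.62%). In Setdb1 KO the mean changed by -9.36e-05. There 13 rose (0.684%, beside 0.755% of all bins) and 9 fell (0.473%, beside 0.934%).

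On SETDB1 loss, 103 of these bins left the deep range and 63 entered it. With UNC0642 in both libraries 191 left and 78 entered. More could leave than enter, since 90.2% and 93.2% were in that range without the loss, and nothing is read from the counts. Over all bins, 3074 (12.8%) were in that range in Setdb1 WT and 3188 (13.3%) in Setdb1 KO. With UNC0642 these counts were 3165 (13.2%) and 3111 (13.0%). The mean score of the 1901 chosen bins was -0.0378 ± 0.00770 (SD over bins) in Setdb1 WT and -0.0374 ± 0.00782 in Setdb1 KO. The difference was 0.000398. The mean difference was above 0 on 15 of 19 autosomes, and with the 1643 mostly single-copy bins alone it was 0.000174, above 0 on 13 of 19. With the implied mean added, the difference of these single-copy bins was -6.71e-05, above 0 on 9 of 19. Bins at 0.03 or higher in all 4 Suv39h libraries, read in the same way on the deposited scale, went from 0.0443 to 0.0437, a difference of -0.000562, below 0 on 18 of 19 autosomes. After quantile normalization the difference was -6.66e-05 in these high bins, below 0 on 13 of 19, and 0.000465 in the deep bins, so which of the sets moved further depended on the scale. With UNC0642 the means of the deep bins were -0.0376 and -0.0375, the median difference was -0.000396, and 46.2% of bins had a difference above 0. With the implied mean subtracted the mean difference of this pair was -0.000196, above 0 on 8 of 19 autosomes. As percentile ranks within the autosome, where 0 is the lowest bin, the mean was 8.25 before and 8.84 after SETDB1 loss. It was 7.99 and 8.90 when both libraries had UNC0642, with a difference above 0 on 16 of 19 autosomes in both cases. The mean rank of the high bins was 91.4 before and after SETDB1 loss. With UNC0642 it went from 91.6 to 91.2, below 0 on 18 of 19 autosomes, and their mean score from 0.0444 to 0.0438.

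The 1958 bins at -0.03 or lower in all 4 Setdb1 libraries, of which 75.7% are members, were read in the Suv39h line. The share at -0.03 or lower was 88.5% (87.0 to 89.8) in Suv39h WT and 89.2% (87.8 to 90.5) in Suv39h DKO. Given UNC0642, the WT cells had 90.8% (89.4 to 92.0) and the DKO cells 90.0% (88.6 to 91.3). All 1958 bins were below 0 in all 4. On the deposited scale, UNC0642 in Suv39h WT changed their mean by -0.000105. By at least 0.01, 30 rose (1.53%, beside 2.26% of all bins) and 41 fell (2.09%, beside 2.53%). In Suv39h DKO the mean changed by 0.000912. There 134 rose (6.84%, beside 3.04% of all bins) and 66 fell (3.37%, beside 3.69%). Of the mostly single-copy bins, 37 rose and 39 fell in Suv39h DKO. On SUV39H1/2 loss 122 bins left the deep range and 136 entered it. Over all bins, 2965 (12.4%) were in that range in Suv39h WT and 3135 (13.1%) in Suv39h DKO. Nothing is read from how many of the 1958 chosen bins left or entered.

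The mean score of these bins was -0.0387 ± 0.00981 in Suv39h WT and -0.0399 ± 0.0112 in Suv39h DKO (SD over bins), lower in the double knockout on 19 of 19 autosomes, and on 18 of 19 with the 1718 mostly single-copy bins alone. The difference of -0.00121 did not keep its direction on 2 other scales. After quantile normalization of the libraries it was 2.26e-05, below 0 on 10 of 19 autosomes, and the mean percentile rank was 8.38 in Suv39h WT and 8.42 in Suv39h DKO. With UNC0642 in both libraries the difference was -0.000189, and its direction turned with the centring, to 0.00118 (above 0 on 18 of 19 autosomes) with the implied mean added and -0.00156 (below 0 on 17 of 19) with it subtracted. On the deposited scale the bins at 0.03 or higher in all 4 Setdb1 libraries, read in the same way, went from 0.0428 to 0.0422 without UNC0642 (after quantile normalization the difference was 5.98e-05). With UNC0642 in both libraries they went from 0.0429 to 0.0417, a difference of -0.00127, below 0 on 19 of 19 autosomes (4.14e-05 after quantile normalization).

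**Figure D5:**
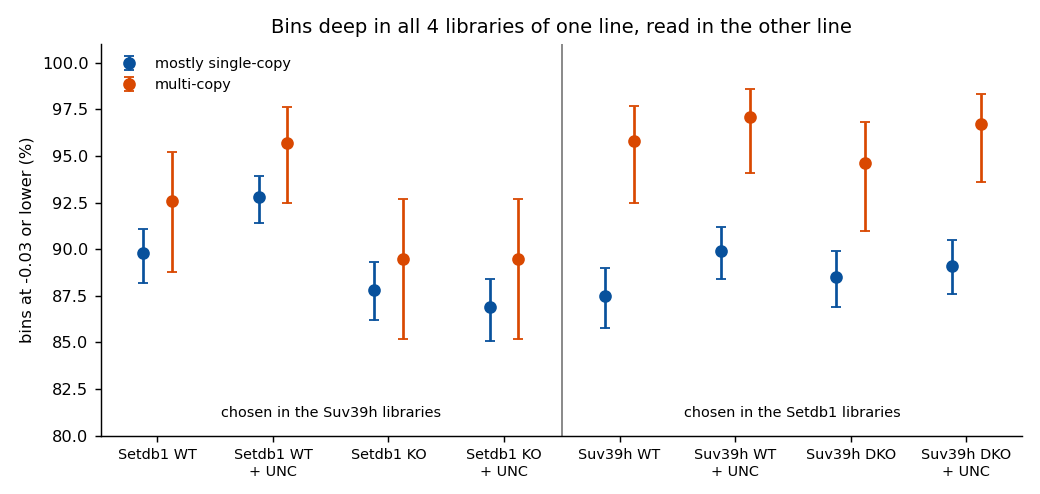
Share (%) of bins at -0.03 or lower in each library, for bins that were at -0.03 or lower in all 4 libraries of the other line. Points are shares of mostly single-copy and multi-copy bins, bars are 95% Wilson intervals over bins, and the axis starts at 80%. The mostly single-copy shares run from 86.9% in Setdb1 KO + UNC to 92.8% in Setdb1 WT + UNC, and the multi-copy shares from 89.5% to 97.1%.

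Some sequence that behaved like deep B could not enter the rule. Of 33 bins with no score in at least 1 library, 31 were at -0.03 or lower in every library that scored them, between -0.0947 and -0.0490. All 31 were multi-copy, with at least 92.5% of words present elsewhere, and 26 lay on chromosomes 4, 7 and 14.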

How the data were processed

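The authors' Hi-C reads (DpnII, mm10) went through the 4D Nucleome Hi-C pipeline with a mapping-quality filter and Juicer Tools, as the methods and the submitters' processing notes state. The deposited scores are first eigenvectors of KR-normalised maps of the 19 autosomes in 100-kb bins. The files hold no counts. The study lists read numbers by repeat, but which repeat a file holds is not stated, so the depth behind each score is not known here. That an autosome's mean had been subtracted from a vector of unit length was inferred from the values, not stated. Members and gene lists were chosen with earlier results of these data known. Named bins were the 10 longest runs, the 5 deepest bins (1 per run), those nearest the threshold and the extreme of each pair; named genes were those in these runs, the 10 longest overlapping members and, per list, the 4 with most bases in members; some of these are not reported here. Scores were joined by position and genes taken from GENCODE vM21. Sequence came from RefSeq GRCm38.p6. Differences were counted from 0.01, with 1 library per group and no test. Scripts in Python 3.11.15 with pandas 2.3.3 were tested on simulated data. Alternatives were other thresholds, scalings, leaving out each library and, chosen after seeing the data, the multi-copy split.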

Additional observations from a re-analysis of the deposited data

Results flagged for a closer look

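One signal lay in data outside the comparisons. Among the 33 bins left out because at least 1 library had no score for them, 31 had scores of -0.03 or lower wherever they were scored, the range of the deep B bins. They ranged from -0.0947 to -0.0490, all 31 were multi-copy, and no explanation was tested.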

How the results depend on the processing

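The files hold no counts, and the read numbers that the study lists by repeat are not tied to a file, so the limit that depth sets on a score is not known here. No fit with a replicate block was made, because the labels give no replicate numbers. Pairs without and with UNC0642 were given as counts with no test, since the members were chosen on the same libraries. At a threshold of -0.025 there were 3091 bins in 741 runs, with 70.1% in runs of 5 or more. At -0.035 there were 637 in 245 runs, with 44.6% in such runs and 60.8% without a protein-coding gene. Adding the implied chromosome mean left 537 bins in 204 runs (46.0% in runs of 5 or more, 59.8% without a gene), and subtracting it gave 3604 in 736 (76.0% in runs of 5 or more). The lowest 10% of each chromosome gave 796 bins. The share in runs of 5 or more was 53.7% after RMS scaling, 72.4% with 1 intervening bin allowed and 64.3% without multi-copy bins. The share without a gene was 71.4% without multi-copy bins, 30.4% against all annotated genes and 82.6% by gene starts. Leaving out each library in turn gave 1523 to 1560 bins, 465 to 481 runs, 59.8% to 62.0% in runs of 5 or more and 65.1% to 65.6% without a gene.

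The share kept in the other line, in the order in which the 8 values of a bin were given, was 93.2%, 95.5%, 92.6%, 91.5%, 89.9%, 92.5%, 91.4% and 91.5% at a threshold of -0.025, and 85.7%, 88.5%, 81.8% and 83.3% in the Setdb1 groups at -0.035. With the mean added it was 86.3%, 90.6%, 84.5% and 82.2% in the Setdb1 groups, 91.7% in Suv39h DKO, and 84.6% in the same cells given UNC0642. With the mean subtracted it was 94.8%, 95.8%, 93.2%, 92.4%, 91.0%, 93.3%, 91.1% and 95.5%. When bins were chosen on the untreated WT library of the other line alone it was 76.3%, 77.9%, 76.1%, 74.3%, 73.6%, 75.6%, 75.7% and 77.1%. It was 91.2% (RMS scaling) and 91.8% (quantile normalization) in Setdb1 WT + UNC, and 90.0% in Suv39h WT after quantile normalization.

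The median difference of members on SUV39H1/2 loss with UNC0642 was 0.000991 (mean added) and -0.00173 (mean subtracted), and the mean difference of bins chosen in the Setdb1 line was 0.00118 and -0.00156, and 0.288 as percentile rank. Without UNC0642 that mean was 2.26e-05 after quantile normalization and 0.0421 as percentile rank. The median between the untreated lines was 0.214 as percentile rank. The cause of these shifts was not tested. Of the 22 counts of rising or falling members, all 22 were higher by over 1.5 times at a change of 0.005, and 16 moved that far after quantile normalization, 20 without multi-copy bins, 5 with the mean added, 3 with it subtracted and 0 with RMS scaling. The multi-copy settings, the RMS units and the other scales for bins chosen in the other line were added after seeing the data.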
